A study of Rattus norvegicus with 8 samples.

Results

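Complement was followed here through 9 genes, namely C1qa, C1qb, C1qc, C2, C3, Cfb, C3ar1, C5ar1 and Cd55. They were chosen by symbol, as components, a regulator and anaphylatoxin receptors of the cascade, and each matched 1 row of the 37209 genes in the count table. All 9 had enough counts to be tested. The arteries came from male Sprague-Dawley rats. The left carotid artery had been injured from the inside with a balloon catheter, and both carotids were taken 2 weeks later, the undamaged right one being the control. RNA was sequenced from 4 injured and 4 control arteries. The control is thus the other carotid of an injured rat, but no label says which control and which injured artery share a rat. The study sequenced harvested arteries and describes no sorting of cells for it. A difference in the number of cells of a type and a difference in RNA per cell thus cannot be told apart.

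Complement is a set of plasma and membrane proteins that tags debris, microbes and damaged cells. C1q, built from A, B and C chains, starts the classical pathway. C2 and factor B (Cfb) supply the protease of the classical or lectin and of the alternative convertase, and each convertase cleaves C3. The fragments C3a and C5a act on C3ar1 and C5ar1 on myeloid and other cells, and CD55 (decay-accelerating factor) takes the convertases apart on the cell surface. Liver is the main source of most plasma complement, whereas C1q is made chiefly by macrophages and related cells.

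Of the 9 genes, 7 were upregulated after injury and 0 were downregulated by edgeR, by DESeq2 or at an unadjusted p under 0.05. A gene was called when its false discovery rate (FDR, Benjamini-Hochberg adjustment over all genes tested) was under 0.05 and its fold change above 2. Over all 14359 genes tested, 10.9% were called, and 8.31% were called as higher. The 7 were the C1q chains, C2, C3 and both anaphylatoxin receptors, with log2 fold changes from 2.17 to 4.08. Cfb and Cd55 were not called. The median log2 fold change was 2.53 for the 9 genes and -0.06 for all genes tested. For the same 7 genes, every injured artery lay above every control artery, as it did for 14.2% of all genes tested. C1qa, C1qb, C1qc, C2 and C3 are on the list of changed extracellular molecules that the study drew from these same arteries, so their direction is not independent evidence. Levels are given as CPM, counts per 1000000 counts of the artery after TMM normalization, which sets a common scale for the libraries. The plot of levels by artery shows all 9 genes.

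**Figure D1:**
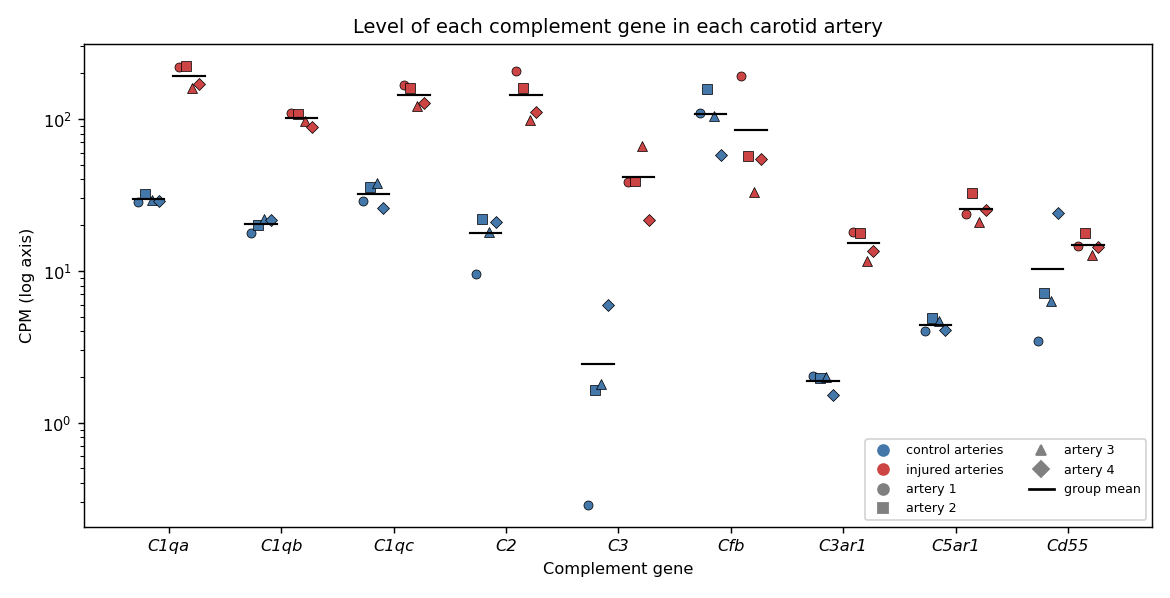
Level of each of the 9 complement genes in CPM (log axis) in 4 control (blue) and 4 injured (red) arteries, with 1 marker shape per artery number and a bar at the group mean. The groups are apart for 7 genes, whereas Cfb and Cd55 overlap, with Cfb at 191 CPM in injured artery 1 and Cd55 at 24.2 CPM in control artery 4.

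Some facts of the libraries bear on these values. The total count was 11459632 to 16658089 per artery, and 3 counts, the smallest level taken as measurable, stood at 0.18 to 0.262 CPM, which covers counting error only. The 8 contractile smooth muscle markers, among them Acta2 and Myh11, summed to 10558 CPM or more in every artery, although a protocol label speaks of prefrontal cortex. The 7 cortex markers summed to at most 49.4 CPM in the controls and 204 CPM in the injured arteries. Most of the latter was Gfap, at 196 CPM in injured artery 3, and Camk2a reached 19.7 CPM in control artery 4. Gad1, Gad2, Slc17a7, Neurod6 and Rbfox3 had at most 34 counts in any artery. Control artery 4 stood apart from the other controls. Its log2 CPM correlated with theirs at 0.830 to 0.852 across genes, which are not independent replicates, against 0.976 to 0.978 among the others. The 8 sympathetic neuron markers, such as Dbh and Syt1, summed to 8144 CPM there and to at most 3.81 CPM in the other controls. In the injured arteries they summed to 1339 CPM in artery 3 and to 10.8 to 106 CPM in the others. Without control artery 4, 8 of the 9 genes were called, Cd55 being the addition, where 16.2% of all genes were. Without control artery 4 and injured artery 3, it was again 8, where 17.2% of all genes were.

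The C1q chains rose together. C1qa had 28.5, 32.2, 29.4 and 28.9 CPM in control arteries 1 to 4 and 219, 223, 159 and 169 CPM in injured arteries 1 to 4. The lowest injured artery was thus 4.94 times as high as the highest control. The mean was 29.8 CPM (SD 1.68, n = 4) in the controls and 193 CPM (SD 33.3, n = 4) after injury. The log2 fold change was 2.69 (standard error 0.15, FDR = 0.000132 from edgeR's quasi-likelihood test), or 6.47-fold. C1qb had 17.9, 20.1, 21.9 and 21.8 CPM in the controls and 110, 108, 96.7 and 88.9 CPM in the injured arteries. For C1qb the log2 fold change was 2.30 (standard error 0.12, FDR = 0.000132 from edgeR). C1qc had 29.0, 35.8, 37.6 and 25.9 CPM in the controls and 167, 161, 122 and 126 CPM in the injured arteries. Its log2 fold change was 2.17 (standard error 0.17, FDR = 0.000298 from edgeR). All 3 chains were tightly grouped within each condition, with coefficients of variation between 5.66% and 17.3%. For these 3 genes and the other 4 called ones, the exact permutation test of log2 CPM over 70 relabellings gave p = 0.0286, two-sided, the smallest that 4 arteries against 4 allow.

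The ratios of C1qb and C1qc to C1qa were lower after injury. Counts of 2 genes within a library can be compared without normalization, and 11 such log2 ratios were tested by the exact permutation test with adjustment over the 11. Each ratio that passed had the smallest p that 4 arteries against 4 allow. Its adjusted p therefore depended on how many of the 11, several of which share a gene, reached that p. The log2 ratio of C1qc to C1qa was 0.03, 0.15, 0.36 and -0.16 in the controls and -0.39, -0.47, -0.39 and -0.42 in the injured arteries. It fell in every injured artery below every control, by 0.51 on average (exact permutation p = 0.0286, adjusted p = 0.0449). That of C1qb to C1qa fell from -0.55 ± 0.15 (SD, n = 4) to -0.92 ± 0.15 (SD, n = 4), with the same p and adjusted p in the exact permutation test. C1qa mRNA thus gained on the mRNA of the other chains, by a factor far smaller than the change of each chain with injury.

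The rat genes C1qb, C1qc and C1qa lie next to each other on 1 chromosome, with no other gene start between them in the GRCr8 annotation of RefSeq. Because these genes changed together, the windows from 250 bases before to 50 after the start of C1qa and C1qb are printed. They come from RefSeq, build GRCr8, at chr5:154419884-154420183 for C1qa and chr5:154407778-154408077 for C1qb, both on the minus strand and written 5′ to 3′ along the gene. Capitals mark the letters GGAAGT, the core bound by factors of the ETS family such as the myeloid factor PU.1, on either strand. This motif and those named below were picked after the windows had been read. C1qa held 2 matches, beginning 107 and 79 bases before the start, and C1qb held 1, on the opposite strand, beginning 61 bases before the start. Of 33469 windows of this length, 22.6% held a match, so the letters are common. Windows of 5 of the 9 genes were read, those of C1qa, C1qb, C3, C3ar1 and Cd55, and C1qc, C2, Cfb and C5ar1 had none. GGAAGT was held by 2 of the 5. The Cd55 window held 0 matches to any of the 3 motifs searched and is not printed.

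C1qa: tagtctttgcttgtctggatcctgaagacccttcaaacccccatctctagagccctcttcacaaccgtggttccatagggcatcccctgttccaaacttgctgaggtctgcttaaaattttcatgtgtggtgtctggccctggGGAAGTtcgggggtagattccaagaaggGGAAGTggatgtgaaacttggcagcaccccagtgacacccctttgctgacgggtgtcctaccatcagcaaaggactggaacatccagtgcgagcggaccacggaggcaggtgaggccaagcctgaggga
C1qb: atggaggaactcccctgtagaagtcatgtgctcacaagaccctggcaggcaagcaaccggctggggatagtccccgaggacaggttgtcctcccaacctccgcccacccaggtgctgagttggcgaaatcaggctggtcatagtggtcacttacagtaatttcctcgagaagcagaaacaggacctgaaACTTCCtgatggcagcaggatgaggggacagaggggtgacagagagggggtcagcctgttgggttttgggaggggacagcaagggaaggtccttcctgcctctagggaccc

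C2, the protease component shared by the classical and lectin convertases, rose as well. It had 9.51, 22.1, 18.1 and 20.8 CPM in the controls and 207, 161, 97.9 and 111 CPM in the injured arteries. The groups were apart, although control artery 1 was lower than the other controls. The control mean was 17.6 CPM (SD 5.66, n = 4) and the injured mean 144 CPM (SD 50.0, n = 4). The log2 fold change was 3.03 (standard error 0.34, FDR = 0.00112 from edgeR), or 8.18-fold.

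Cfb, which supplies the protease of the alternative convertase, behaved differently. It had 110, 157, 104 and 58.0 CPM in the controls and 191, 57.1, 33.2 and 54.3 CPM in the injured arteries. Injured artery 1 was above every control and the other 3 injured arteries were below every control. The log2 fold change was -0.35 (standard error 0.55, FDR = 0.701 from edgeR), and its sign was negative under every scaling used. Without injured artery 1 the log2 fold change was -1.15 (standard error 0.36, FDR = 0.0845 from edgeR), still not called. Without control artery 4, the lowest control, it was -0.56 (standard error 0.54, FDR = 0.472 from edgeR). Without control artery 4 and injured artery 3 it was -0.29 (standard error 0.46, FDR = 0.658 from edgeR). C2 and Cfb are neighbours in the rat genome, with no gene start between them, and the strand setting of the counting is not given in the sources used here. The ratio of C2 to Cfb was higher in every injured artery than in every control. The log2 ratio of C2 to Cfb was -3.52, -2.83, -2.52 and -1.47 in the controls and 0.12, 1.49, 1.56 and 1.03 after injury. This is a 12.4-fold difference (exact permutation p = 0.0286, adjusted p = 0.0449 over the 11 ratios). C2 thus had fewer counts than Cfb in every control library and more in every injured library, counts that are not corrected for gene length and so do not order the levels of the genes.

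C3, the substrate of all convertases and the precursor of C3a and C3b, had the largest fold change of the 9. Its counts were 4, 20, 26 and 86 in the controls and 645, 540, 1175 and 265 in the injured arteries. In CPM this was 0.288, 1.64, 1.80 and 5.98 against 38.6, 39.2, 66.0 and 21.7. The lowest injured artery was 3.63 times as high as the highest control. The spread was wide, with a 20.7-fold range among the controls and a 3.04-fold range after injury. The log2 fold change was 4.08 (standard error 0.79, FDR = 0.0106 from edgeR), or 16.9-fold. In each group the artery with the most C3 was the one with the most sympathetic neuron marker RNA, control artery 4 and injured artery 3, and the part of that RNA in C3 was not tested. Without control artery 4 the log2 fold change was 5.05 (standard error 0.60, FDR = 0.000928 from edgeR), and without it and injured artery 3 it was 4.73 (standard error 0.47, FDR = 0.000306 from edgeR). Other fits came nearer the limit, although C3 was called in them. The FDR from edgeR was 0.0426 without control artery 2, 0.0417 without control artery 3 and 0.0424 with the replicate number as a block.

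Hepatocyte markers were looked at because liver makes most plasma C3. Fga and Fgb had 0 counts in all 8 arteries, and Ahsg had at most 1. Alb was highest in control artery 2, at 5.41 CPM, and stood at 0.18, 0.07, 1.29 and 0.16 CPM in the injured arteries. Of the 3 hepatocyte markers that were tested, Tf, which encodes transferrin and is made in other cells as well, was the 1 that was called, with a log2 fold change of 1.25. The list summed to 40.0 to 65.8 CPM in the controls and 93.7 to 155 CPM after injury, nearly all of it Tf. The part of plasma or liver RNA in C3 was not tested.

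The C3 window from RefSeq, GRCr8 chr9:2201290-2201589 on the minus strand, is printed because C3 had the largest change. Capitals mark a match to TTGCNNAA, letters found in sites for C/EBP factors, beginning 104 bases before the start. Such a match was held by 1 of the 5 windows read and by 10.6% of the 33469 windows.

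C3: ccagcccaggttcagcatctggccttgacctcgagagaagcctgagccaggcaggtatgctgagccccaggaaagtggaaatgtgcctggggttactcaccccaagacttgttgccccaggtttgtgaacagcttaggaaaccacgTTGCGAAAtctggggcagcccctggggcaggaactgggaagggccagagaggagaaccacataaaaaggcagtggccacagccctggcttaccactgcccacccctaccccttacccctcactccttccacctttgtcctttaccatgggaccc

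C3 was set against 4 of the other genes, and its ratio to Cfb and to Cd55, neither of which was called, passed the test. The log2 ratio of C3 to Cfb was -8.40, -6.55, -5.83 and -3.27 in the controls and -2.31, -0.54, 0.99 and -1.32 after injury, a difference of 5.22 (exact permutation p = 0.0286, adjusted p = 0.0449). The log2 ratio of Cd55 to C3 fell by 3.71, with no overlap between the groups and the same p and adjusted p in the exact permutation test. The ratios to C1qa and C3ar1 did not pass. The log2 ratio of C1qa to C3 was 4.25 ± 1.72 (SD, n = 4) in the controls and 2.31 ± 0.72 (SD, n = 4) after injury (exact permutation p = 0.114, adjusted p = 0.14). That of C3ar1 to C3 was 0.28 ± 1.88 (SD, n = 4) and -1.35 ± 0.79 (SD, n = 4), with p = 0.143 and an adjusted p of 0.157 in the exact permutation test. Both differences rested in part on single controls. For C1qa to C3 the log2 ratio differed between groups by -1.94, by -1.20 without control artery 1 and by -2.60 without control artery 4. For C3ar1 to C3 these values were -1.63, -0.84 and -2.38.

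**Figure D2:**
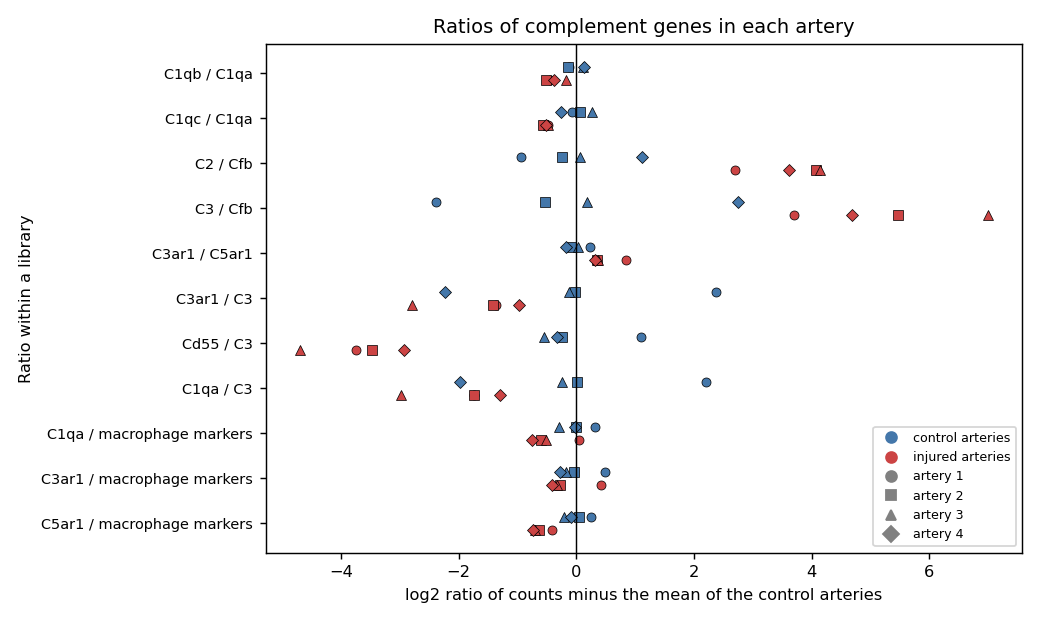
Log2 ratio of the counts of 2 genes (or of a gene and the summed macrophage markers) in each artery, minus the mean of the 4 control arteries, for control (blue) and injured (red) arteries. C2/Cfb and C3/Cfb lie to the right of all controls after injury and Cd55/C3 to the left, by 3.64, 5.22 and 3.71 on the log2 scale.

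Both anaphylatoxin receptors rose. C3ar1, the receptor for C3a, had 2.02, 1.97, 2.01 and 1.53 CPM in the controls and 18.1, 17.8, 11.6 and 13.5 CPM in the injured arteries. The lowest injured artery was 5.76 times as high as the highest control. Its mean was 1.88 CPM (SD 0.24, n = 4) in the control and 15.3 CPM (SD 3.22, n = 4) in the injured arteries, with a log2 fold change of 3.02 (standard error 0.22, FDR = 0.000226 from edgeR). C5ar1, the receptor for C5a, had 4.03, 4.92, 4.64 and 4.10 CPM in the controls and 23.6, 32.5, 20.9 and 25.2 CPM in the injured arteries. Its log2 fold change was 2.53 (standard error 0.18, FDR = 0.000226 from edgeR). C3ar1 rose somewhat more than C5ar1. The log2 ratio between them went from -1.22 ± 0.18 (SD, n = 4) to -0.75 ± 0.24 (SD, n = 4), with no overlap (exact permutation p = 0.0286, adjusted p = 0.0449).

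The C3ar1 window from RefSeq, GRCr8 chr4:157756481-157756780 on the minus strand, is shown beside that of its ligand's gene C3. Capitals mark TGACTCA, the letters of an AP-1 site, beginning 72 bases before the start. These letters, on either strand, were held by 1 of the 5 windows read and by 4.63% of the 33469 windows.

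C3ar1: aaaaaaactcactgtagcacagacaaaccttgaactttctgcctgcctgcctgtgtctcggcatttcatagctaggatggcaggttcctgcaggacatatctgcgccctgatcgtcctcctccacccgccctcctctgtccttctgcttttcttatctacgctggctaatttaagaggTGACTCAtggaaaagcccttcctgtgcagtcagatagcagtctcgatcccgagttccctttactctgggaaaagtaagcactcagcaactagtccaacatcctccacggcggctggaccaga

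Both receptors and C1q are known from macrophages, and macrophage markers moved with them. Of 11 listed markers 10 were in the table and 9 were tested. Of these, 8 were upregulated, Lyz2 and Csf1r among them, and Cd163 was not called (log2 fold change 0.09). Marco had 0 counts in all arteries. The 10 markers summed to 156 to 246 CPM in the controls and 1443 to 2318 CPM after injury. The log2 ratio of C3ar1 to this sum was -6.74 ± 0.34 (SD, n = 4) in the controls and -6.89 ± 0.39 (SD, n = 4) after injury (exact permutation p = 0.457, adjusted p = 0.457). That of C1qa to the sum was -2.77 ± 0.25 (SD, n = 4) and -3.22 ± 0.35 (SD, n = 4), with an exact permutation p of 0.114 and an adjusted p of 0.14. Relative to the sum C5ar1 fell, its log2 ratio being lower by 0.62 with no overlap (exact permutation p = 0.0286, adjusted p = 0.0449). The make-up of the sum differed between the groups, since Lyz2 stood at 40.8 to 79.6 CPM in the controls and 945 to 1755 CPM after injury, a log2 fold change of 4.38. The median log2 fold change of the 9 tested markers was 2.54, beside 2.53 for C5ar1. Csf1r (2.00), Cd14 (1.54), Mrc1 (1.07) and Cd163 (0.09) had lower log2 fold changes than C5ar1. Lyz2 (4.38), Cd68 (4.08), Tyrobp (3.20), Fcgr1a (2.85) and Aif1 (2.54) had higher ones. These differences were not tested. The part of a change in macrophage number in these genes was not tested.

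Other cell types are given by the same count. After injury 2 of 3 tested neutrophil markers and 1 of 7 T cell markers were upregulated, and 0 of 2 tested platelet markers were called by edgeR (1 by DESeq2, and 1 at an unadjusted p under 0.05). The neutrophil list summed to 2.81 to 6.67 CPM in the controls and 8.84 to 26.0 CPM after injury, the T cell list to 1.81 to 11.2 and 12.6 to 30.4 CPM, and the platelet list to 5.07 to 18.1 and 18.4 to 26.4 CPM. The part of these cells in the complement genes was not tested. Of the 8 neutrophil markers, Csf3r reached 16.5 CPM, whereas Elane and Camp had at most 4 counts in any artery. Mpo, which encodes the neutrophil myeloperoxidase, had 0.43, 4.92, 1.80 and 4.86 CPM in the controls and 0.18, 0, 0.51 and 0.41 CPM in the injured arteries. It did not pass edgeR's filter, and DESeq2 called it lower (log2 fold change -3.48, FDR = 0.00134). Skeletal muscle markers were upregulated for 6 of 8, Acta1 and Ckm not being called. Their list summed to 84.3 to 253 CPM in the controls and 295 to 1054 CPM after injury. Myh1 changed most, from at most 0.42 CPM in the controls to 79.5 to 220 CPM after injury (log2 fold change 8.98). The part of skeletal muscle RNA in the complement genes was not tested. Contractile smooth muscle markers were downregulated for 5 of 8. Of 7 fibroblast markers 1 rose and 2 fell, and of 7 endothelial markers 2 rose and 1 fell. Of 6 adipocyte, 6 Schwann cell, 5 sympathetic neuron and 2 cortex markers tested, 0 were called by edgeR. At an unadjusted p under 0.05 it was 1 adipocyte and 1 cortex marker, and DESeq2 called 1 adipocyte marker. Without control artery 4, edgeR called 2 of 5 sympathetic neuron and 1 of 6 Schwann cell markers higher. Of 3 cortex markers tested there, 1 was called higher and 1 lower, and 0 of 6 adipocyte markers were called. The share of all genes called was then 16.2%. The median log2 fold change of the sympathetic neuron markers was 6.43 there and -2.37 with all arteries.

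Cd55, which protects cells from convertases, depended on a single artery. It had 3.46, 7.14, 6.31 and 24.2 CPM in the controls and 14.5, 17.8, 12.8 and 14.4 CPM in the injured arteries. The injured arteries were close to each other, above controls 1 to 3 and below control 4. The log2 fold change was 0.53 (standard error 0.54, FDR = 0.549 from edgeR). Without control artery 4, the control mean was 5.63 ± 1.93 CPM (SD, n = 3) in place of 10.3 CPM (SD 9.41, n = 4). The log2 fold change was then 1.39 (standard error 0.27, FDR = 0.0067 from edgeR), and Cd55 was called. Without control artery 4 and injured artery 3 it was 1.47 (standard error 0.27, FDR = 0.00427 from edgeR). Control artery 4 was also the one with 8144 CPM of sympathetic neuron markers, whose part in its Cd55 was not tested.

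The arteries were not ordered alike over the 9 genes. Injured artery 1 had the highest value of 5 genes within its group (C1qb, C1qc, C2, Cfb and C3ar1), injured artery 2 of 3 (C1qa, C5ar1 and Cd55) and injured artery 3 of C3. Injured artery 3 had the lowest value of 7 of the 9. Among the controls, artery 1 had the lowest value of 6. Among the injured arteries the coefficient of variation was lowest for C1qb, at 9.65%, and highest for Cfb, at 86.1%. Among the controls it was lowest for C1qa, at 5.66%, and highest for C3, at 101.5%, followed by Cd55 at 91.6%.

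**Figure D3:**
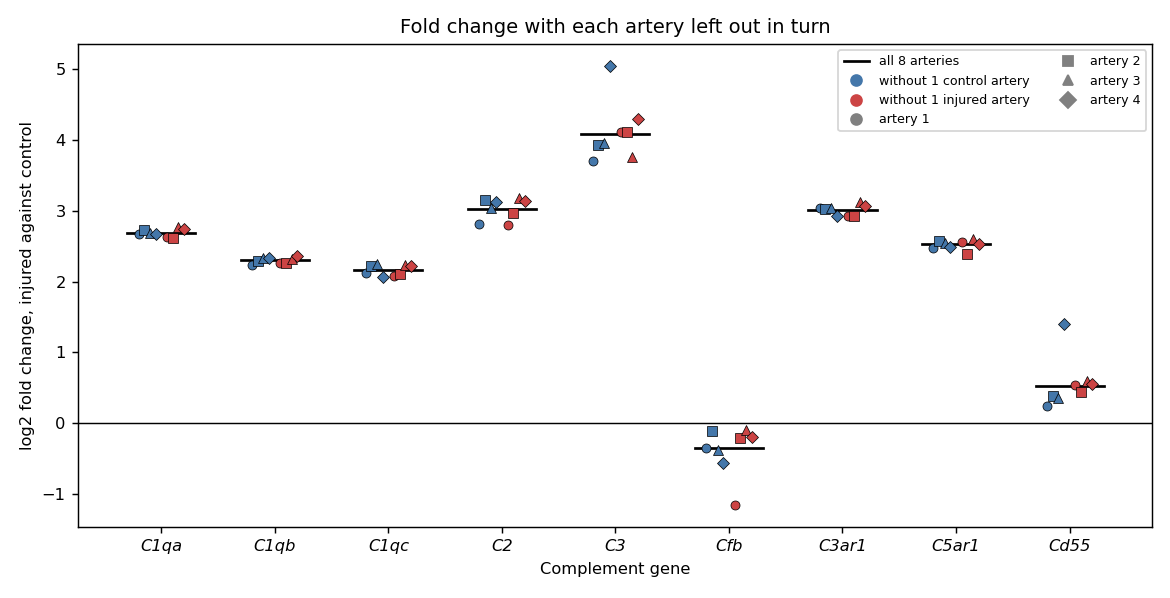
Log2 fold change of each gene with all 8 arteries (bar) and with 1 control (blue) or 1 injured (red) artery left out, the marker shape giving the number of the artery left out. C3 ranges from 3.71 to 5.05, Cfb from -1.15 to -0.09 and Cd55 from 0.24 to 1.39, whereas C1qb stays between 2.24 and 2.36.

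Genes with a similar profile were sought by the root mean square difference of log2 CPM over the 8 arteries, each gene centred on its own mean, among the tested genes with a mean log2 CPM above 1. The nearest to C1qa were Pld4, LOC102551963 and Ikzf1, at 0.117, 0.144 and 0.147 log2 units. Those to C1qb were Fgd2, Ssc5d and Tnfrsf11a, at 0.123 to 0.161, and those to C1qc were Tlr2, Csf1r and Pla2r1, at 0.121 to 0.170. C5ar1 had the closest of all, Ctss at 0.087, followed by Fermt3 and Ptafr at 0.100 and 0.115. Lrrc25, LOC102551963 and C1qa were the nearest to C3ar1, at 0.16 to 0.17. C2 was nearest to Adap2, Ccdc88b and Ccl6, at 0.20 to 0.26. C3 was nearest to RT1-Db1, Fcgr2b and Cd74 at 0.47 to 0.54, Cfb to Dusp10, Arl4d and Fgl2 at 0.36 to 0.40, and Cd55 to Camk1d, Fam102b and Pitpnc1 at 0.25 to 0.30.

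The rest of the pathway was read from 40 further complement genes listed by role. Of these, 25 had enough counts to be tested. By edgeR 11 were upregulated and 14 were not called, against the 10.9% of all genes called and the 8.31% called higher. Downregulation was called for 0 genes by edgeR and for 1, Susd4, by DESeq2, and 3 of the lower genes had an unadjusted p under 0.05. Their median log2 fold change was 0.68. The plot of log2 fold changes shows the genes by role. The lists are short, and no test compared the roles.

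**Figure D4:**
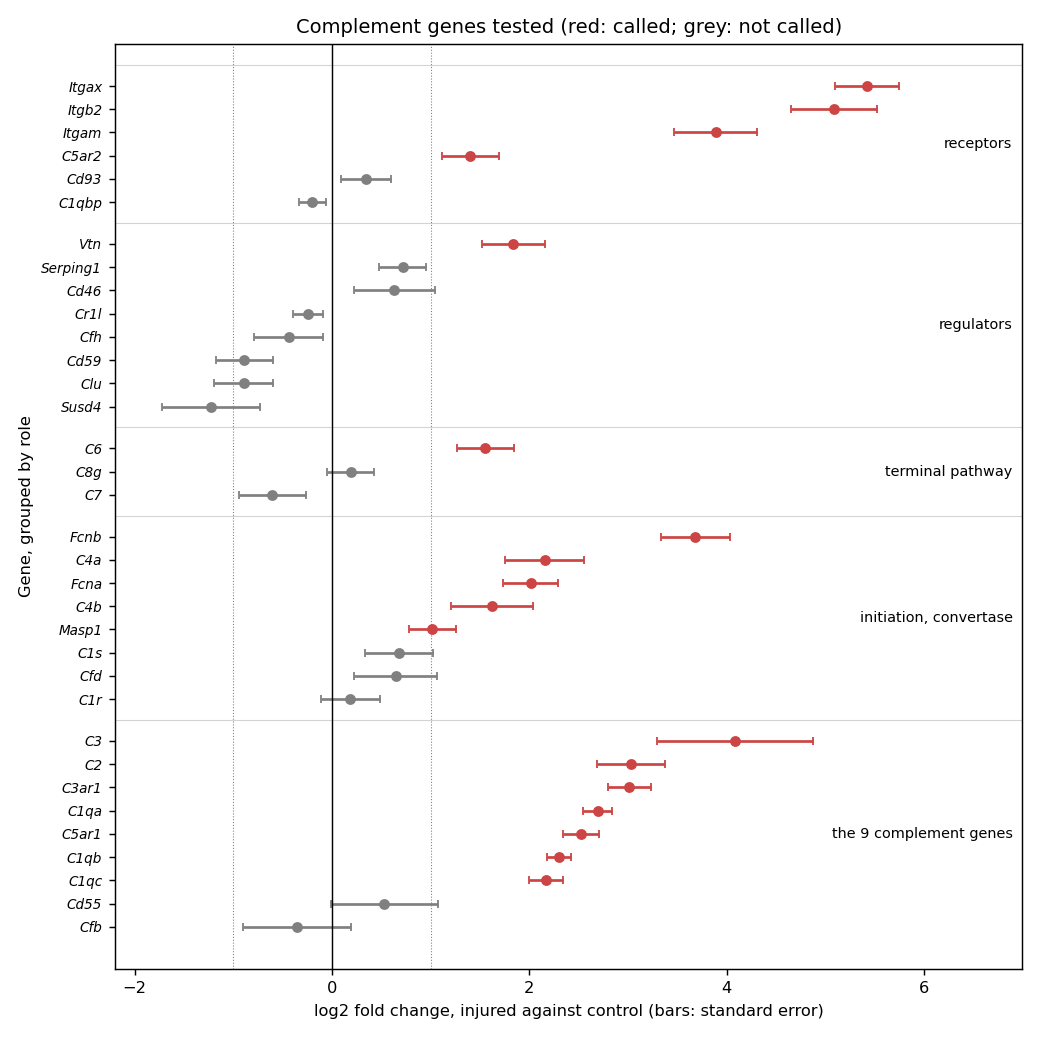
Log2 fold change (injured against control) of the 9 complement genes and of 25 further complement genes grouped by role, with standard errors. Red marks the genes called by edgeR and grey those not called, and dotted lines mark a fold change of 2. Receptors reach 5.42 for Itgax, and 1 of 8 regulators is called, where 10.9% of all genes tested were.

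Of 8 tested genes of initiation and convertases, 5 were upregulated. The ficolins, which recognise sugars and start the lectin pathway, were among them. Fcna rose, with 4.70 ± 0.67 CPM on average in the 4 controls and 19.0 ± 7.15 CPM (SD) in the 4 injured arteries. For Fcna the log2 fold change was 2.02 (standard error 0.28, FDR = 0.00255 from edgeR). Fcnb had 2, 3, 3 and 4 counts in the controls and 69, 40, 43 and 27 counts in the injured arteries. A log2 fold change of 3.69 (standard error 0.35, FDR = 0.000558 from edgeR) rests on controls at about the 3-count floor. C4a and C4b, near-identical copies between which reads may be split, had log2 fold changes of 2.15 (standard error 0.40) and 1.63 (standard error 0.42), with FDR = 0.00928 and FDR = 0.0315 from edgeR. C4b was 562 CPM in injured artery 1 and 162 to 245 CPM in the other injured arteries. It was not called when control artery 1, 2 or 3 or injured artery 4 was left out, with an FDR of 0.0779, 0.0756, 0.0619 and 0.0688 from edgeR. With the replicate number as a block, neither C4b (FDR = 0.137 from edgeR) nor Masp1 (FDR = 0.0974 from edgeR) was called. Masp1, a protease of the lectin pathway, had a log2 fold change of 1.02 (standard error 0.24, FDR = 0.0241 from edgeR), just past the limit. It was not called without control artery 1, 2 or 4 or injured artery 2 or 4, where the log2 fold change was 1.01, 1.06, 0.86, 0.96 and 0.88. C1r, the protease that C1q activates, had 665 CPM (SD 230, n = 4) in the controls and 757 CPM (SD 151, n = 4) in the injured arteries, and the log2 fold change was 0.19 (standard error 0.30, FDR = 0.706 from edgeR). Control artery 4 was the lowest for C1r at 330 CPM, and without it the log2 fold change was -0.04 (FDR = 0.868 from edgeR). The C1q chains thus rose while C1r was not called.

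Of 3 tested genes of the terminal pathway, which builds the membrane attack complex, 1 was upregulated. C6 rose, with 5.53 ± 1.28 CPM on average in the 4 controls and 16.2 ± 5.64 CPM (SD) in the 4 injured arteries. For C6 the log2 fold change was 1.55 (standard error 0.29, FDR = 0.00928 from edgeR). C7 had 1568 CPM (SD 613, n = 4) in the controls and 1031 CPM (SD 288, n = 4) in the injured arteries, and the log2 fold change was -0.61 (standard error 0.34, FDR = 0.271 from edgeR). Control artery 4 was the lowest control for C7 at 740 CPM. Without it the log2 fold change was -0.84 (FDR = 0.0223 from edgeR), which the fold change limit kept from being called. C5 had at most 13 counts and C9 at most 3 counts in any artery, and C8a had 0, so they were not tested.

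Of 8 tested regulators, 1 was upregulated, Vtn, where 8.31% of all genes tested were called higher. It encodes vitronectin, which binds terminal complexes and matrix, and it rose, with 4.71 ± 1.81 CPM on average in the 4 controls and 16.8 ± 3.03 CPM (SD) in the 4 injured arteries. For Vtn the log2 fold change was 1.84 (standard error 0.32, FDR = 0.00654 from edgeR). Clu, which encodes clusterin, had 2399 CPM (SD 698, n = 4) in the controls and 1290 CPM (SD 438, n = 4) in the injured arteries. Its log2 fold change of -0.89 (standard error 0.30, FDR = 0.0761 from edgeR) was not called, but without control artery 4 it was -1.05 (FDR = 0.0165 from edgeR) and without injured artery 1 it was -1.16 (FDR = 0.0366 from edgeR), and both were called. Cd59, which blocks the membrane attack complex and was chosen after its values were seen, had -0.89 (FDR = 0.0689 from edgeR) and was called lower, at -1.20, without injured artery 3. Serping1, also named after its values were seen, went the other way, at 0.72 (FDR = 0.0772 from edgeR), and was not called. Of the 8 regulators, 5 had an unadjusted p under 0.05 from edgeR, 3 of them lower. The median log2 fold change of the 8 regulators was -0.34, and 3 of the 8 were positive. Cfi, the protease factor I, had 0 counts in every control and 8, 8, 22 and 25 counts in injured arteries 1 to 4, too few for the filter used with edgeR, and it was chosen for mention after its values were seen. DESeq2 (FDR = 3.86e-05) and edgeR without a filter (FDR = 0.0173) both called it higher. C6, Cfi, Fcna, Masp1 and Vtn are on the study's list of extracellular molecules drawn from these arteries, so their direction is not independent evidence.

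Of 6 tested receptors, 4 were upregulated. Itgax, Itgb2 and Itgam encode chains of the leukocyte integrins that bind C3 fragments, and they had log2 fold changes of 5.42 (standard error 0.32), 5.09 (standard error 0.43) and 3.89 (standard error 0.42). Their FDR was 0.000162, 0.000391 and 0.000936 from edgeR. Itgax had 0.656 to 1.04 CPM in the controls and 23.8 to 48.5 CPM after injury. Like the macrophage markers these integrins are made by myeloid cells. C5ar2, the other receptor for C5a, rose, with 5.48 ± 2.06 CPM on average in the 4 controls and 14.5 ± 1.97 CPM (SD) in the 4 injured arteries. Its log2 fold change was 1.40 (standard error 0.29, FDR = 0.0137 from edgeR). Cd93, once described as a C1q receptor and made by endothelium, had a log2 fold change of 0.34 (standard error 0.25, FDR = 0.401 from edgeR). The remaining 15 of the 40 genes were not tested, and 5 of them, Mbl1, Mbl2, Cfp, C8a and Vsig4, had 0 counts in all 8 arteries.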

How the data were processed

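mRNA of 4 injured and 4 contralateral control carotid arteries of rats was measured. The authors deposited raw counts per gene symbol, 1 column per artery, without normalization. The submitters' processing notes name HISAT2 2.0.4. The counting tool, strand setting and genome build are not given in the sources used here, so overlapping genes and near-identical copies are uncertain. All columns were matched to arteries by their labels.

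Counts were normalized with TMM factors and tested with edgeR 4.0.16 in R 4.3.3 (filterByExpr, quasi-likelihood test, no covariate) over 14359 genes. Genes were called at FDR under 0.05 and a fold change above 2, limits taken from the study, which used DESeq. CPM values use the TMM factors, and the floor of 3 counts uses totals. Levels are not corrected for gene length, so levels of different genes were not ranked, and ratios of 2 genes were compared between groups. Log2 ratios used counts + 0.5 and were tested with SciPy 1.17.1. The fits were also run on simulated counts of independent libraries. These held no outlying artery and no shared rat, so that run says nothing of those features.

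The members and lists were chosen with earlier results of these data known. Named genes are the 9 members, called genes of the other complement lists with the highest and the most changed of each list, leading marker genes and the 3 nearest genes of each member. Cfi, Cd59, Serping1, further markers and genes at 0 were named after their values were seen. Alternatives were DESeq2 1.42.0, other scalings and filters, the replicate block, each artery left out, other call rules and, added later, 2 arteries left out. Each control artery served as the self-control of an injured rat, but whether equal numbers mark 1 rat is not given, so the main fit is unpaired. P-values set the difference between the groups against the spread between these arteries. The main fit and the permutation tests take the arteries as independent, although each control came from an injured rat. Among the other columns of the table, 0 were left unused.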

Additional observations from a re-analysis of the deposited data

Results flagged for a closer look

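Of 70 groups of 4 arteries examined (24 genes and 11 ratios), 6 had an artery whose gap to its nearest neighbour was over 0.829 of the range within the group. About 3.5 such groups come by chance. Injured artery 1 was that artery in Cfb (ratio 0.849, 191 CPM), C7 (0.889, 1460 CPM), Clu (0.918, 1945 CPM), the log2 ratio of C3ar1 to C5ar1 (0.895) and that of C3ar1 to the macrophage markers (0.837). Control artery 4 was it in C3ar1 (0.901), with 1.53 CPM against 1.97 to 2.02 CPM in the other controls, a gap far smaller than the change after injury.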

How the results depend on the processing

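The C1q chains, C2, C3ar1 and C5ar1 were called under all alternatives run, and C3 under all but the filter of at least 10 counts in every sample, which removed it. That left 6 members called. DESeq2, RLE and upper-quartile factors, library totals, leaving out the 10 genes with the most counts, no filter, the replicate block, the FDR alone and the test against a fold change of 2 each called 7. With library totals the median log2 fold change of all genes was 0.12 against -0.06. The number of genes called was 1007 (715 higher) with at least 10 counts in every sample, 2468 (918 lower) with the FDR alone and 661 (600 higher, 61 lower) against a fold change of 2, where 5 other complement genes were called, all 5 higher. Without control artery 4 and injured artery 3, chosen after seeing the data, it was 2473 (1800 higher, 673 lower). Leaving out single arteries gave 1142 to 2398 genes (945 to 1817 higher, 197 to 581 lower), with 7 to 8 members and 9 to 12 other complement genes. The highest of the gene counts came without control artery 4. Their cause was not tested. With the replicate block, 1187 genes (234 lower), 7 members and 9 other complement genes were called, C4b and Masp1 being lost. Control and injured arteries of 1 number, each centred on its group, correlated at 0.30, 0.45, -0.52 and -0.42. Of the 4 injured arteries, 2 correlated best with their own number, arteries 1 and 2. Injured artery 3 correlated best with control artery 4, and injured artery 4 with control artery 3. Control artery 4 and injured artery 3 had the most sympathetic neuron marker RNA of their groups. The correlations thus cannot decide which arteries share a rat. With 1 artery left out, the log2 fold change of C1r ran from -0.042 (control 4) to 0.29, and the log2 ratio of C3ar1 to the macrophage markers, -0.15, from -0.34 to 0.014 (control 1). All 7 ratios that passed also passed with a prior count of 2. With 1 artery left out or with sign flips within numbers, the smallest p is 0.0571 and 0.125, so those fits say nothing of the threshold.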
